A study of Mus musculus with 12 samples.

Results

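The response to crowding was measured in mouse embryonic fibroblasts of the FAK rescue line, as the difference in messenger RNA between densely and sparsely seeded cultures. The comparison used 6 of the 12 arrays of the study, those titled as rescue cells: 3 dense and 3 sparse cultures, 1 of each on each of 3 experimental days. Focal adhesion kinase (FAK, encoded by Ptk2) is a tyrosine kinase at integrin-based contacts with the matrix. The rescue cells are a single clone, DA2, of FAK knockout (KO) fibroblasts in which FAK was expressed again. The KO line (ATCC CRL-2644) with its 6 arrays served here only for comparison. Each day counted as a biological replicate, per the series' design text, with a single array per culture. Dense dishes of 10 cm received 8200000 cells and sparse dishes 410000, both in 10 ml of DMEM with Glutamax, fetal bovine serum, hygromycin B and non-essential amino acids. KO cells were grown without hygromycin and without the amino acids. The cultures were taken off with trypsin after 24 h, give or take 1 h. Because the volume of medium was the same, crowding and medium shared by more cells cannot be told apart.

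Crowded fibroblasts are known for contact inhibition: cells that touch their neighbours on all sides leave the cell cycle, lower the activity of the co-activators YAP and TAZ, and change the matrix they secrete. Proliferation genes are switched on by E2F factors before DNA replication and by the MuvB, B-Myb and FOXM1 complexes before mitosis. FAK signals through Src, ERK and PI3K to promote cell cycle entry, and FOXO factors, which PI3K and AKT hold in the cytoplasm, turn on genes of quiescence and catabolism when that signal falls.

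Each level is given as log2 of the scanner's processed signal minus the 75th percentile of that array, so that 1 unit is a factor of 2 and 0 is the 75th percentile. A level belongs to its probe and says nothing of the level of another gene. The same mass of RNA was labelled from every culture, and fewer cells expressing a gene and less RNA per cell cannot be told apart in such bulk samples. Between 23150 and 25549 of 41174 probes rose well above background on a rescue array. Within a group, replicates correlated at 0.982 to 0.989 across genes, and the first principal component, with 69.3% of the variance, parted dense from sparse. The second, with 12.9%, set day 3 apart at both densities. Spike-in RNA lay 1.63 to 2.35 log2 units above the 75th percentile in sparse and 0.86 to 1.7 in dense cultures. When the arrays were scaled to it, the median of all genes moved from -0.08 to 0.65, and calls split into 3112 higher and 320 lower. The number of arrays limits the precision of all values.

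The authors' deposited value table went against the scanner files in 4 of 12 columns. The 4 columns of day 3 were each matched best by the array of the same density and the other line, while the other 8 were matched best by their own array (correlations of centred values of at least 0.91). Among the scanner files each day 3 array correlated at 0.81 or more with days 1 and 2 of its own labelled line and density, and at -0.66 or below with those of the other line. The scanner files underlie all results below. As labelled, the deposited table gave 0 genes past limma's adjusted p and 903 at an unadjusted p under 0.05. With its days 1 and 2 only, it gave 1981 genes higher and 1671 lower.

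In dense rescue cultures 4977 of 12435 genes tested changed (40.0%, limma adjusted p under 0.05), 2366 of them higher (19.0%) and 2611 lower (21%). Counts of list members below are to be read beside these shares. After normexp background correction 2321 genes passed. A change of at least 2-fold was found for 1417 higher and 1467 lower genes, and of at least 4-fold for 388 and 299. The difference had the same sign on all 3 days for 4932 of the 4977, and the values of the 3 dense and 3 sparse arrays did not overlap for 4818 of them. Over all genes the 2 densities did not overlap for 50.6%. The 4977 genes were picked by a test on the same arrays, which favours both a shared sign and separate groups. Of the changed genes 155 were not well above background on any sparse array and 59 on any dense array, and for these only a lower bound of the fold is given (the measured density against the dimmest probes well above background on the other density's arrays). A few genes named below with a fold were well above background on only part of the dimmer arrays: Foxn1, Lce1g, Lce1i, Serpinb2 and Stc2 on 2 of 3 dense arrays, C1s1, Foxo3, Igfbp2 and Rnase1 on 2 of 3 sparse arrays, and Gbp3, Il1rn, Oasl2 and Selenop on 1 of 3 sparse arrays. For all genes given array by array below, except Ptk2, the 3 dense values lay wholly above or wholly below the 3 sparse values.

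**Figure D1:**
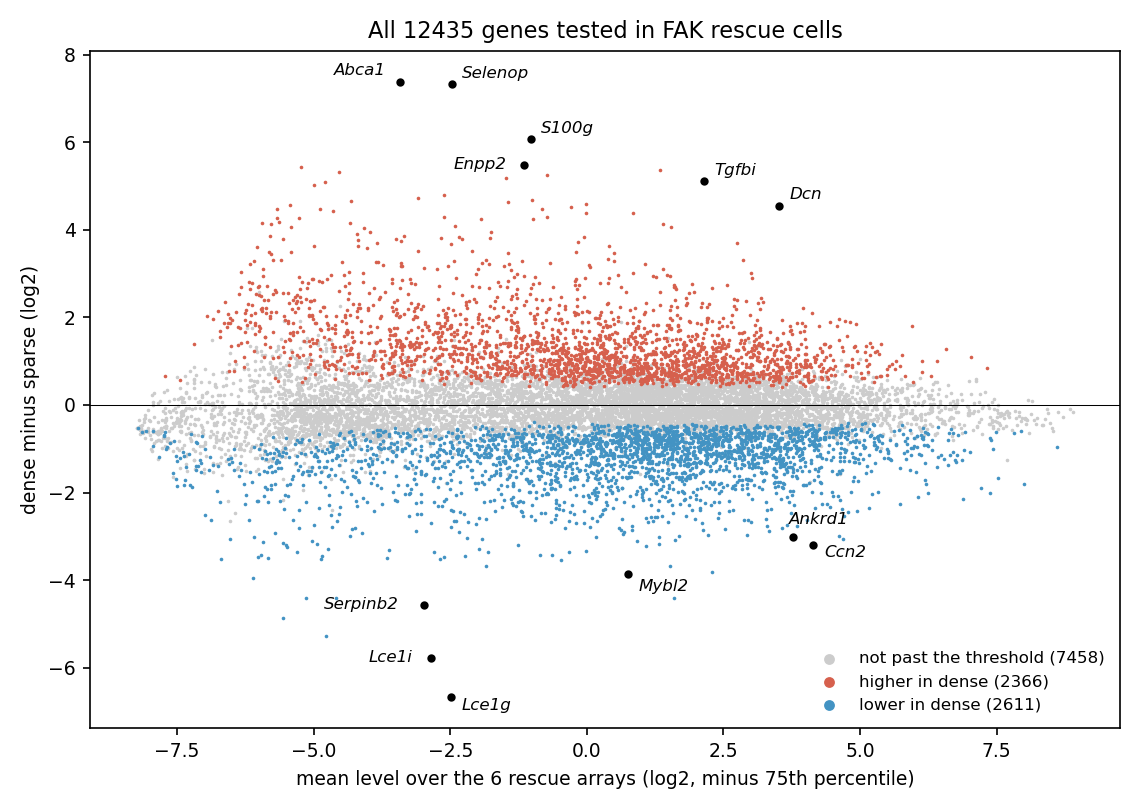
Dense minus sparse difference (log2, vertical) against the mean level over the 6 rescue arrays (log2 signal minus 75th percentile, horizontal) for each of 12435 genes, with genes past the adjusted p of 0.05 in red (2366 higher) and blue (2611 lower) and 12 named genes in black. Selenop stands at 7.33 with 1 of 3 sparse arrays well above background and Lce1g at -6.67 with 2 of 3 dense arrays, and Abca1 is plotted at its measured difference although its sparse level is only a bound.

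The probes of the targeted gene disagreed. Ptk2 had 2 of them. The brighter read 0.08, 0.38 and 0.48 in sparse and 0.39, 0.34 and 0.34 in dense cultures, a difference of 0.04 ± 0.18 (SE, adjusted p = 0.87), with overlapping groups. The other was lower in dense cultures by -1.38 ± 0.31 (adjusted p = 0.0046 in the fit over probes), so that Ptk2 is reported as uncertain. Which exons they match was not analysed here, and they do not check the labels. Ptk2b, which encodes the related kinase PYK2, differed by 0.62 ± 0.32 (adjusted p = 0.14).

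Genes of DNA replication were lower in dense cultures. Of 50 genes tested, which span origin licensing, the replicative helicase, polymerases, nucleotide supply and the E2F factors themselves, 50 fell and none rose, with a median of -1.90, against -0.08 for all genes. Their medians on days 1, 2 and 3 were -1.55, -1.93 and -2.05. With spike-in scaling the median was -1.17, and 24 of the 50 were still called.

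Mybl2 encodes B-Myb, the factor that links the end of replication to mitotic transcription, and read 2.64, 2.74 and 2.68 in sparse and -0.61, -1.69 and -1.23 in dense cultures. The 3 sparse arrays lay within 0.1 of each other, and every dense array was far below them: the difference was -3.86 ± 0.24 (SE, n = 3 and 3, adjusted p = 1.4e-06), or 14.6-fold. Cdc6, the loader of the MCM helicase on origins, read 1.01, 1.14 and 1.05 in sparse and -2.05, -2.97 and -2.04 in dense cultures, a difference of -3.42 ± 0.24 (adjusted p = 2.4e-06). Both of its probes fell. Orc1, a subunit of the origin recognition complex, fell by 10.2-fold, Ccne2, cyclin E2, by 9.84-fold, and Rrm2, the small subunit of ribonucleotide reductase, by 8.68-fold. E2f1, the activating factor of the family, read 0.76, 1.24 and 1.15 in sparse and -0.27, 0.01 and -0.74 in dense cultures, a fall of 2.6-fold.

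Mitotic genes were lower as well. Of 50 tested, 47 fell and none rose, with a median of -1.90. Smc4, Cdc25b and Pttg1 did not pass the test. Cdk1, the kinase that starts mitosis, read 4.0, 3.99 and 4.81 in sparse and 1.88, 1.18 and 1.87 in dense cultures, and both probes fell. All sparse arrays were above all dense arrays, by -2.62 ± 0.26 on average (adjusted p = 2.1e-05). Top2a, the topoisomerase that disentangles sister chromatids, read 2.55, 2.28 and 3.10 in sparse and 0.54, -0.25 and 0.01 in dense cultures, a fall of 5.81-fold. Foxm1, the factor that drives mitotic genes, fell 6.29-fold, Ube2c, the ubiquitin-conjugating partner of the anaphase-promoting complex, 5.54-fold and Hmmr 5.71-fold. With spike-in scaling the list's median was -1.18, and 22 of 50 members were called lower.

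Promoters of the falling cell cycle genes are shown because they hold the letters read by the complexes named above. They come from the supplied RefSeq table (build GRCm38.p6), which had a promoter for 42 of the 50 replication genes and 41 of the 50 mitotic genes. Searched on both strands over the 250 bases before the start, the CHR (TTTGAA) was in 29.3% of the mitotic promoters against 16.0% of all promoters in the table, and CCAAT in 73.2% against 33.8%. The E2F letters TTCCCGC were in 26.2% of the replication promoters against 3.82% of all, and TTGGCGC in 14.3% against 1.97%. Over the last 100 bases the same shares were 17.1% against 5.77%, 65.9% against 18.9%, 14.3% against 1.7% and 7.14% against 0.913%. Here and below, a list share counts a gene if any of its promoters holds the letters, whereas the share of all promoters counts each of 32851 promoters. Counted by gene, as for the lists, the 4 shares over 250 bases were 13%, 40.7%, 7.70% and 3.87% of the 9936 tested genes with an entry. A match is a description of letters and not a site. The stretches run 5′ to 3′ up to the base before the start, with CHR letters in capitals in the first pair and TTCCCGC or its reverse complement in the second.
Cdk1, chr10:69352913-69352993, - strand: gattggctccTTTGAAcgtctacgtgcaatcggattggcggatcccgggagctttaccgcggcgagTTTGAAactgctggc
Top2a, chr11:99024190-99024378, - strand: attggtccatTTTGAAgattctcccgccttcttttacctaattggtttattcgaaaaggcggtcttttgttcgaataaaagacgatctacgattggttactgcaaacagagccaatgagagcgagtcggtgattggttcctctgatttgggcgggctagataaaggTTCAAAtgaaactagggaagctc
Cdc6, chr11:98908003-98908150, + strand: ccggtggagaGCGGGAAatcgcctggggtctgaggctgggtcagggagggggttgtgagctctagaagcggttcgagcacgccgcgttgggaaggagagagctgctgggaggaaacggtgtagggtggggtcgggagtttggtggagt
Chaf1a, chr17:56040359-56040415, + strand: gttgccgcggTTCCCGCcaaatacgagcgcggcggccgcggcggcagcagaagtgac
In Cdk1 and Top2a the CHR nearest the start lies 15 and 23 bases before it, counted from its first base. Chaf1a, a subunit of the histone chaperone that follows the replication fork, fell 6.33-fold.

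Most of the G1 regulators tested were lower. Among 13 cyclins, kinases and pocket proteins of G1, 9 fell (69.2%) and 2 rose (15.4%), with a median of -1.15. Of all genes 21% fell and 19.0% rose. With spike-in scaling 2 fell and 2 rose (median -0.43), and after normexp correction 3 fell and none rose. Ccnd2, a D-type cyclin, read 3.36, 3.65 and 3.30 in sparse and 1.37, 1.02 and 1.28 in dense cultures, a fall of 4.63-fold (adjusted p = 5.0e-06) shared by its 3 probes, and Cdk6, its kinase partner, fell 3.82-fold. The 2 that rose were the pocket proteins Rbl2 (p130, 2.06-fold) and Rb1 (2.03-fold), repressors of E2F genes in resting cells, while Rbl1 (p107) fell 2.3-fold.

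Of 24 CDK inhibitors and quiescence genes tested, 12 rose (50%) and 2 fell (8.33%), against 19.0% and 21% of all genes. The other 10 did not pass (median 0.36). With spike-in scaling no fall was called. Pdgfra, the receptor for platelet-derived growth factor that resting fibroblasts carry, read -2.01, -1.5 and -2.53 in sparse and 1.95, 1.57 and 1.59 in dense cultures, a rise of 13.1-fold (adjusted p = 9.0e-06). Txnip, which binds thioredoxin and lowers glucose uptake, read 0.36, 1.46 and 1.07 in sparse and 3.60, 3.83 and 3.46 in dense cultures, and rose 6.34-fold. Ccng2, a cyclin of non-dividing cells, rose 4.82-fold, and Gas1, a growth arrest gene, 4.55-fold. Among the inhibitors, Cdkn2b (p15) rose 3.7-fold, Cdkn2a 2.49-fold and Cdkn1b (p27) 1.63-fold. Cdkn1a (p21) differed by -0.17 ± 0.23 (adjusted p = 0.59) and Cdkn2c (p18) by 0.27 ± 0.20 (adjusted p = 0.3), neither past the test. Cdkn2d (p19) and Hes1, a Notch effector, fell 2.02-fold and 2.00-fold. 

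**Figure D2:**
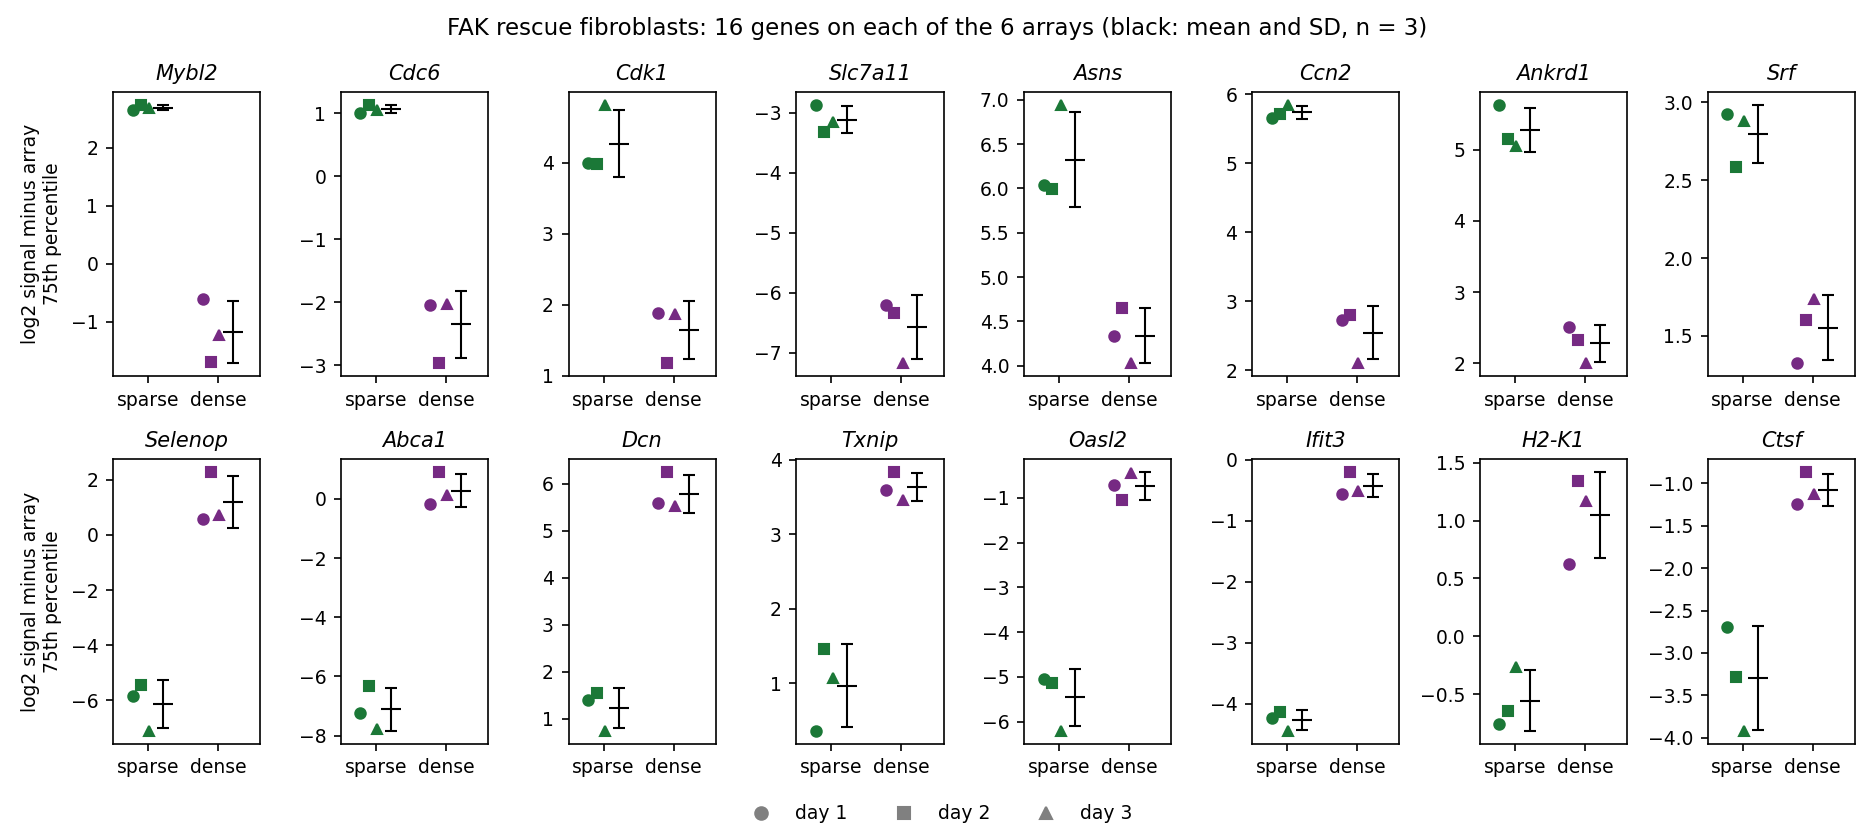
Log2 level (signal minus the array's 75th percentile, vertical, 1 scale per panel) of 16 genes on each rescue array, sparse in green and dense in purple, with a symbol per day and black bars for mean and SD (n = 3). In every panel the 3 dense arrays lie on 1 side of the 3 sparse arrays: below them in the upper row, from Mybl2 to Srf, and above them in the lower row, from Selenop to Ctsf.

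Genes for making ribosomes were lower. Of 36 ribosome biogenesis genes 35 fell, and Nop14 did not pass (median -1.5; day medians -1.39, -1.60 and -1.58; -0.78 with spike-in scaling, with 7 called). Myc, the factor that drives many of them, read 2.93, 3.44 and 3.56 in sparse and 1.56, 0.98 and 1.65 in dense cultures, a fall of 3.77-fold (adjusted p = 0.0015) on all 3 probes. Nhp2, a core protein of H/ACA particles, read 5.66, 5.42 and 5.76 in sparse and 3.26, 3.43 and 3.16 in dense cultures, a fall of 5.02-fold. Rrp12 fell 5.33-fold, Rrp9 5.24-fold, the helicase Ddx21 4.47-fold and Nolc1, which shuttles nucleolar proteins, 4.42-fold. Among 38 cytosolic ribosomal proteins Rps27l and Rpl15 fell, 2 in all, and the median was -0.33, which quantile normalization turned to 0.04 and spike-in scaling to 0.40. That count rests on single arrays: 11 fell without the dense array of day 2 (median -0.55), none without that of day 3, and 4 with day as a replicate block.

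Genes that supply amino acids were also lower. Among 37 genes of the ATF4 programme, which cells use when amino acids run short, 24 fell, 3 rose and 10 did not pass (median -1.11; -0.39 with spike-in scaling, with 9 called lower). The count of rises was 1 without the sparse array of day 1, that of day 2 or the dense array of day 2. Atf4 itself read 4.22, 4.38 and 4.58 in sparse and 2.90, 3.02 and 3.02 in dense cultures, a fall of 2.67-fold (adjusted p = 7.7e-04). Asns, asparagine synthetase, read 6.04, 6.00 and 6.94 in sparse and 4.34, 4.66 and 4.03 in dense cultures; its fall of 3.95-fold was widest on day 3. Slc7a11, the cystine transporter, was well above background on the 3 sparse arrays and on none of the dense arrays, at least 8.88-fold lower on its brightest probe; 2 of its 3 probes passed. Mthfd2, of mitochondrial one-carbon metabolism, fell 8.53-fold, Stc2, a secreted stanniocalcin, 9.96-fold, Cth, which makes cysteine, 7.28-fold and the stress cytokine Gdf15 7.05-fold. The largest rises in the list were Nupr1 (2.25-fold), a stress-induced nuclear protein, and Vldlr (2.24-fold), a lipoprotein receptor.

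Of 20 cytosolic aminoacyl-tRNA synthetases, which charge tRNAs, 14 fell and none rose (median -1.05; -0.33 with spike-in scaling, with no call in either direction). Vars, the enzyme for valine, fell 3.1-fold, Mars1, for methionine, 2.69-fold, and Yars, for tyrosine, 2.49-fold. The letters TGATGNAA, the C/EBP-ATF response element (CARE) bound by ATF4 dimers, were in 9 of 31 promoters of the amino acid list that could be matched (29.0%, against 3.45% of all promoters and 2.41% of those of tested genes) and in 3 of 13 of the synthetases (23.1%). Over 100 bases the shares were 9.68% and 15.4% against 1.54%. The 3 fallers with the largest change that hold it are shown with the element, on either strand, in capitals.
Slc7a11, chr3:50443614-50443689, - strand: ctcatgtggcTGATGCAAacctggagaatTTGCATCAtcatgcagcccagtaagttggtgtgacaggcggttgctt
Chac1, chr2:119351039-119351241, + strand: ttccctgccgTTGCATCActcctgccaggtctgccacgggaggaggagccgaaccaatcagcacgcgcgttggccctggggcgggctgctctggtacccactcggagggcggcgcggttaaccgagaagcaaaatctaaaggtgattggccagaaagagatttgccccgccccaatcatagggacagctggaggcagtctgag
Asns, chr6:7693210-7693242, - strand: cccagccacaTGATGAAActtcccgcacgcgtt
Slc7a11 holds the element in both orientations within 66 bases of the start. Chac1, which degrades glutathione, read 4.20, 4.54 and 4.89 in sparse and 2.43, 2.00 and 2.11 in dense cultures, a fall of 5.15-fold.

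Within the endoplasmic reticulum, 12 of 25 genes of the unfolded protein response and of folding fell (48%) and 2 rose (8%). Of all genes 21% fell and 19.0% rose. The list median of -0.65 became 0.07 with spike-in scaling, and no fall was then called. After normexp correction 6 fell. Sdf2l1, a chaperone partner, fell 3.76-fold, Manf 2.89-fold and Hyou1, a large chaperone, 2.81-fold, whereas Crebrf, a negative regulator of the response, rose 4.59-fold and the co-chaperone Dnajb9 1.78-fold.

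In the list of YAP, TAZ and TEAD factors and their targets more genes fell than rose. Of 31 tested, 14 fell (45.2%) and 6 rose (19.4%), against 21% and 19.0% of all genes, and 11 did not pass. The median of -0.54 turned to 0.19 with spike-in scaling, with 5 called lower. After normexp correction 3 rose. Within the list the co-activators' own transcripts did not pass: Yap1 differed by -0.28 ± 0.22 and Wwtr1, which encodes TAZ, by 0.66 ± 0.36. The best known targets were among those that fell. Ccn2 (CTGF), a matricellular protein, read 5.66, 5.71 and 5.85 in sparse and 2.74, 2.81 and 2.10 in dense cultures, a difference of -3.19 ± 0.34 (adjusted p = 3.4e-05), or 9.14-fold. Ankrd1, an ankyrin repeat protein, read 5.63, 5.16 and 5.06 in sparse and 2.51, 2.33 and 2.00 in dense cultures, a fall of 8.03-fold, and Ccn1 (CYR61) read 4.80, 4.85 and 4.60 in sparse and 2.79, 2.32 and 3.28 in dense cultures, a fall of 3.87-fold. Edn1, which encodes the vasoconstrictor endothelin 1, fell 10.3-fold, Nppb, the brain natriuretic peptide, 11.2-fold and Amotl2, a YAP-binding protein, 4.43-fold. Nt5e, an enzyme that makes adenosine outside the cell, and Rbms3, an RNA-binding protein, rose 2.89-fold and 2.53-fold.

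Contractile genes fell in part. In the list of serum response factor (SRF) and actomyosin genes, 18 of 39 fell (46.2%) and 1, the myosin kinase Mylk, rose (2.56%). Of all genes 21% fell and 19.0% rose. The list median of -0.71 moved to 0.01 with spike-in scaling, with 1 called lower, and after normexp correction 11 fell. Srf read 2.93, 2.59 and 2.88 in sparse and 1.32, 1.60 and 1.73 in dense cultures, a fall of 2.37-fold (adjusted p = 2.3e-04). Acta2, smooth muscle actin, read 7.31, 7.41 and 7.16 in sparse and 6.10, 6.03 and 5.62 in dense cultures, a fall of 2.59-fold on its brightest probe, and its 3 probes all fell. Cnn1, calponin, fell 4.11-fold, Actg2 3.64-fold, Fhl1 3.23-fold, Tagln 2.99-fold and Tagln2 2.83-fold.

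The TEAD letters GGAATG were in 12 of 23 matched promoters of the YAP list (52.2%, against 12.6% of all promoters and 13.1% of those of tested genes; 8.70% against 4.71% of all over 100 bases). The CArG box, CC then 6 A or T then GG, which SRF binds, was in 7 of 34 promoters of the SRF list (20.6%, against 1.47% of all and 1.55% of those of tested genes; 14.7% against 0.615% of all over 100 bases). The pairs shown have TEAD letters in capitals in Nppb and Edn1 and CArG boxes in capitals in Fhl1 and Srf.
Nppb, chr4:147985785-147985899, + strand: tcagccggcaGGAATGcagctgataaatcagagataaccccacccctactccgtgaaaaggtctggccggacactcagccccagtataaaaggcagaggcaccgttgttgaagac
Edn1, chr13:42301259-42301475, + strand: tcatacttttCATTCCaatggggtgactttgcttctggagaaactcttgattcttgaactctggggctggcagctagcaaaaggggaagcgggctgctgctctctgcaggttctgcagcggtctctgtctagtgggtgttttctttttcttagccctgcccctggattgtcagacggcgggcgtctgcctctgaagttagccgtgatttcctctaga
Fhl1, chrX:56779571-56779682, + strand: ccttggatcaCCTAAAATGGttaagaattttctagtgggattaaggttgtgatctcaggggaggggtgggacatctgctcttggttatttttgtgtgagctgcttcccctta
Srf, chr17:46556163-46556254, - strand: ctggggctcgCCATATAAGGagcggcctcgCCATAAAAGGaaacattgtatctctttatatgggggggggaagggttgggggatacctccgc
The Srf promoter holds a pair of boxes, 82 and 62 bases before the start.

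Growth factor signalling genes fell in part. Of 31 immediate early and ERK feedback genes, 16 fell (51.6%) and 6 rose (19.4%), against 21% and 19.0% of all genes. The median of -0.59 turned to 0.13 with spike-in scaling, with 7 called lower. After normexp correction 10 fell. Fosl1, the FRA1 subunit of AP-1, read 3.13, 3.0 and 2.61 in sparse and 0.13, -0.37 and -0.58 in dense cultures, a fall of 9.1-fold (adjusted p = 5.1e-04). Etv4, an ETS factor downstream of ERK, fell 7.52-fold, the EGF receptor ligand Hbegf 7.43-fold and the receptor Epha2 7.15-fold. Egr1 went the other way, with 0.53, 1.40 and 0.10 in sparse and 2.75, 3.0 and 3.12 in dense cultures, a rise of 4.85-fold, as did Egr2 (6.3-fold), both zinc finger factors of the early response. Among growth factors and their receptors 10 of 35 rose (28.6%) and 6 fell (17.1%), against 19.0% and 21% of all genes. After normexp correction 6 rose and 3 fell, with spike-in scaling 1 fell, and without day 1 6 rose. The growth hormone receptor Ghr rose 5.48-fold, Igf2r, which clears IGF2, 3.81-fold and Igfbp2, which binds IGFs, 4.25-fold, while the co-receptor Nrp1 fell 3.14-fold.

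Genes of the FOXO programme were higher. Of 25 factors and targets, 15 rose (60%) and 1, the lipid transporter Abcb4, fell (4%), against 19.0% and 21% of all genes (median 0.96). After normexp correction 9 rose, and with day as a replicate block 3 fell. Foxo1 read 0.34, 0.77 and 0.58 in sparse and 1.64, 1.23 and 1.74 in dense cultures, a rise of 1.95-fold (adjusted p = 0.0027), and Foxo3 rose 1.91-fold with 2 of 3 sparse arrays well above background. Trp53inp1, an autophagy and p53 cofactor, read -3.57, -3.77 and -3.95 in sparse and 0.68, 1.03 and 0.90 in dense cultures, a rise of 24.8-fold, and Pik3ip1, an inhibitor of PI3K, read -1.37, -1.27 and -1.41 in sparse and 2.83, 3.60 and 2.66 in dense cultures, a rise of 20.8-fold. Fbxo32 (atrogin 1), a ubiquitin ligase of wasting muscle, rose 7.92-fold and the cell death factor Bcl2l11 (BIM) 7.79-fold. Trim63, the partner ligase MuRF1, was at least 4.79-fold higher. The FOXO letters GTAAACA were in 2 of 19 matched promoters, and in 3.17% of all promoters; over 100 bases they were in 0 of 19 and in 1.12% of all.

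Lysosomal genes rose as a broad group. Of 50 lysosome and autophagy genes tested, 35 rose and none fell, with a median of 1.08 and day medians of 0.96, 1.35 and 0.90. The measured changes ran from -0.18 to 2.22, beside 0.49 and 1.65 for the percentiles 75 and 95 of all genes. After normexp correction 26 rose. Ctsf, cathepsin F, read -2.69, -3.29 and -3.92 in sparse and -1.24, -0.87 and -1.13 in dense cultures, a rise of 4.65-fold (adjusted p = 5.9e-05). Cathepsin O (Ctso) rose 3.98-fold, and the glycosidase Naglu 3.74-fold. Tfeb, the factor that drives such genes, was not among them: it read -3.44, -3.29 and -3.47 in sparse and -3.53, -3.57 and -3.62 in dense cultures, a difference of -0.17 ± 0.28 (adjusted p = 0.66). The E-box CACGTG at the core of the CLEAR element was in 11 of 40 matched promoters (27.5%, against 6.02% of all and 9.69% of those of tested genes; 20.0% against 3.17% of all over 100 bases), and is in capitals in the 3 risers with the largest change that hold it.
Ctsf, chr19:4855076-4855164, + strand: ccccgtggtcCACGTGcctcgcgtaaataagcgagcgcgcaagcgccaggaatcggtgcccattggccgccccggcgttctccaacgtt
Naglu, chr11:101070011-101070093, + strand: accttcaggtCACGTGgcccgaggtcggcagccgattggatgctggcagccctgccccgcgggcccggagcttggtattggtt
Mcoln1, chr8:3500438-3500518, + strand: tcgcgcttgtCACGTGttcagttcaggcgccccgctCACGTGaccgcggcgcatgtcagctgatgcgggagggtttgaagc
Mcoln1, the calcium channel of the lysosome membrane, holds the E-box in 2 places and read 2.67, 2.70 and 1.5 in sparse and 3.84, 4.42 and 3.90 in dense cultures, a rise of 3.39-fold.

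Interferon-stimulated genes were higher in dense cultures. Of 32 tested, 25 rose and 1, the RNA helicase Dhx58, fell (1.7-fold). The median was 1.71, or 1.15 when 7 members without a measured level at 1 density were set to their bound. It was 0.80 after normexp background correction, with 8 called. Dim members could enter the list through the dense arrays alone. Among the 20 well above background on all 6 rescue arrays, 15 rose and 1 fell (median 1.01). Oasl2, an oligoadenylate synthetase-like protein, read -5.05, -5.13 and -6.20 in sparse and -0.70, -1.06 and -0.45 in dense cultures, a rise of 26.4-fold (adjusted p = 1.2e-06) with 1 of 3 sparse arrays well above background. Ifit3, which blocks translation of viral RNA with its relatives, read -4.22, -4.12 and -4.44 in sparse and -0.56, -0.21 and -0.51 in dense cultures, a rise of 14.3-fold, the sparse and dense arrays each within 0.4 of one another. Gbp3, a guanylate-binding protein, rose 12.1-fold. Parp14 and Ifit1 were at least 11.8-fold and 5.44-fold higher, with no sparse array well above background. Irf7, the factor that amplifies interferon, rose 4-fold.

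Of 14 genes of antigen presentation on MHC class I, 6 rose (42.9%) and none fell, against 19.0% and 21% of all genes (median 0.82). With spike-in scaling 10 rose. Cd1d1, which presents lipids, rose 6.51-fold, H2-T23 5.85-fold and tapasin, Tapbp, 3.12-fold. H2-K1 read -0.76, -0.65 and -0.26 in sparse and 0.63, 1.34 and 1.17 in dense cultures, a rise of 3.03-fold on its brightest probe, but its 3 probes ran from -0.62 to 1.60, and those of H2-D1 from -0.04 to 1.1. Class I genes are near copies of each other, so that these 2 are uncertain. The core of the interferon-stimulated response element, GAAANNGAA, was in 14 of 24 matched interferon promoters (58.3%, against 7.13% of all and 7.51% of those of tested genes; 41.7% against 2.53% of all over 100 bases) and in 3 of 12 of the class I list (8.33% over 100 bases). Overlapping matches are merged in the capitals below.
Ifit1, chr19:34640770-34640888, + strand: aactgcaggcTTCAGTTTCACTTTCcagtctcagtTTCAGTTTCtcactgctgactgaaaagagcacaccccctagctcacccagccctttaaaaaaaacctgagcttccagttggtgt
Ifit3, chr19:34583364-34583528, + strand: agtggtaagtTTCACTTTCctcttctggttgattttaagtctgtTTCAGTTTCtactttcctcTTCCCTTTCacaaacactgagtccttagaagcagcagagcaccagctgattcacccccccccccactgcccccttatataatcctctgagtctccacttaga
Gbp3, chr3:142559990-142560043, + strand: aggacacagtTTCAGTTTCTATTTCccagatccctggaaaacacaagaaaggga
All 3 hold more than 1 match, on the strand opposite to transcription.

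More matrix genes rose than fell. Of 55 collagens and matrix proteins 25 rose (45.5%) and 5 fell (9.09%), against 19.0% and 21% of all genes, and 25 did not pass (median 0.61). After normexp correction 14 rose and 1 fell, and with spike-in scaling none fell. The count of falls was 3 without the sparse array of day 1 or the dense array of day 3. Dcn, decorin, a small leucine-rich proteoglycan that binds collagen fibrils, read 1.41, 1.55 and 0.75 in sparse and 5.59, 6.24 and 5.53 in dense cultures, a difference of 4.55 ± 0.26 (adjusted p = 1.0e-06), or 23.4-fold. Ogn, osteoglycin, of the same family, rose 5.12-fold. Lum, lumican, also of that family, was well above background on no sparse array and was at least 11-fold higher. Prelp rose 38.0-fold on its brighter probe, but its probes ran from 0.71 to 5.25. Matn2, the adaptor matrilin 2, rose 12.9-fold. Thbs1, thrombospondin 1, an adhesive glycoprotein, fell 3.11-fold on its brightest probe, as did its other probes. The fibrillar collagen genes Col1a1 and Col1a2 did not pass, though 1 of 3 Col1a1 probes was higher.

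Rises outnumbered falls among proteases and their inhibitors. Of 32 tested 14 rose (43.8%) and 6 fell (18.8%), against 19.0% and 21% of all genes (median 0.85). After normexp correction 7 rose and 3 fell (median 0.47), with spike-in scaling 2 fell, and without day 2 the median was 0.50. Mmp2, gelatinase A, read -0.35, -1.04 and -1.63 in sparse and 1.62, 2.03 and 1.66 in dense cultures, a rise of 6.85-fold. Mmp3, stromelysin 1, and Mmp13, a collagenase, were well above background only in dense cultures and were at least 15.4-fold and 11.3-fold higher. Plaur, the urokinase receptor, fell 6.22-fold. In the TGF-beta and BMP list 15 of 34 fell (44.1%) and 5 rose (14.7%), against 21% and 19.0% of all genes. Its median of -0.33 turned to 0.39 with spike-in scaling, with 6 lower and 8 higher. After normexp correction 2 rose, and without day 1 3 rose. Tgfbi, an integrin-binding matrix protein named for its induction by TGF-beta, read -0.49, 0.10 and -0.88 in sparse and 4.67, 5.10 and 4.31 in dense cultures, a rise of 34.7-fold. Inhbb, an activin subunit, fell 8.39-fold on its brighter probe, and Id4 and the activin antagonist Fst were at least 4.59-fold and 4.24-fold lower.

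Most adhesion components did not pass the test, which 40.0% of all genes passed. Of 35 focal adhesion and integrin genes 26 did not pass, 3 rose (8.57%) and 6 fell (17.1%), against 19.0% and 21% of all genes. The median of -0.19 turned to 0.53 with spike-in scaling, with none lower. The count of falls rests on the choice of probe: it was 13 when all kept probes of a gene were averaged (median -0.37), and it was 2 after normexp correction. Itgb4, a laminin receptor subunit, and Itga11, a collagen receptor subunit, rose 4.93-fold and 4.72-fold. Itga3, another laminin receptor subunit, and Git1, a scaffold of adhesion turnover, fell 2.64-fold and 2.14-fold. In the list of cadherins and junctions 7 of 26 fell (26.9%) and 3 rose (11.5%), against 21% and 19.0% of all genes. Spike-in scaling turned this balance to none lower and 8 higher. After normexp correction 4 fell, and 5 rose with day as a replicate block. N-cadherin, Cdh2, differed by -0.32 ± 0.27 (adjusted p = 0.37), and plakoglobin, Jup, rose 3.21-fold.

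Of 26 chemokine and cytokine genes 7 rose (26.9%) and 8 fell (30.8%), against 19.0% and 21% of all genes. With spike-in scaling 8 rose and 2 fell, after normexp correction 1 rose and 3 fell, and without day 1 or day 3 5 and 4 fell. Il1rn, the natural antagonist of interleukin 1, rose 9.55-fold, Il18 7.1-fold, and cyclooxygenase 2, Ptgs2, read 3.44, 2.81 and 3.31 in sparse and 0.37, -0.32 and 0.54 in dense cultures, a fall of 7.96-fold. Of 17 complement genes 7 rose (41.2%) and 1 fell (5.88%), against 19.0% and 21% of all genes. C3, the central component, rose 19-fold on its brighter probe, with probes from 0.64 to 4.25, and the proteases C1ra and C1s1 rose 6.37-fold and 14.2-fold. Masp1, of the lectin pathway, fell 2.73-fold.

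The gene with the largest lower bound was one of lipid handling. Abca1, which exports cholesterol to lipoproteins, read -7.24, -6.33 and -7.77 in sparse and -0.19, 0.89 and 0.12 in dense cultures. No sparse array was well above background, and it was at least 75.9-fold higher in dense cultures (adjusted p = 7.9e-07). Of 19 genes of the adipogenic and lipid list 11 rose (57.9%) and 1 fell (5.26%), against 19.0% and 21% of all genes. The count of rises was 5 after normexp correction and 6 with no filter on dim probes, in a fit of the 6 rescue arrays alone, without the dense array of day 1 or without the sparse array of day 3. It was 7 without the sparse array of day 1 or the dense array of day 2. The risers include Plin4, a lipid droplet coat (4.96-fold), Fabp3, a fatty acid carrier (3.93-fold) and Mylip, a ligase that degrades the LDL receptor (3.44-fold). Cholesterol synthesis changed in few genes: 5 of 32 rose (15.6%), led by the desaturase Scd1 (2.47-fold), 1 fell (3.12%) and 26 did not pass. Of all genes 19.0% rose and 21% fell. The median of the cholesterol list was 0.03, and 0.75 with spike-in scaling. The rises were 1 after normexp correction (median -0.01) and 2 without any of the 3 days, and the median was -0.06 without the dense array of day 2 or the sparse array of day 3. Respiratory chain, hypoxia and glycolysis and NRF2 genes had medians of 0.09, -0.02 and -0.06. In these lists 34 of 38, 27 of 35 and 19 of 32 members did not pass the test, which 40.0% of all genes passed. Within them the glycolytic Eno2 rose 5.2-fold and the glutathione transferase Mgst1 5.95-fold, and Gclm, of glutathione synthesis, fell 3.21-fold. Of 21 Wnt genes 6 rose (28.6%) and 5 fell (23.8%), and of 19 p53 targets 5 rose (26.3%) and 7 fell (36.8%), against 19.0% and 21% of all genes. With spike-in scaling 6 Wnt genes rose and none fell, and 5 p53 targets rose and 2 fell. After normexp correction 3 Wnt genes rose and 1 fell, and 3 fell without the dense array of day 1. Ccn5, from the Wnt list, rose 6.71-fold, and from the p53 list the epoxide hydrolase Ephx1 rose 5.81-fold, and the nuclease Aen fell 5.9-fold.

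**Figure D3:**
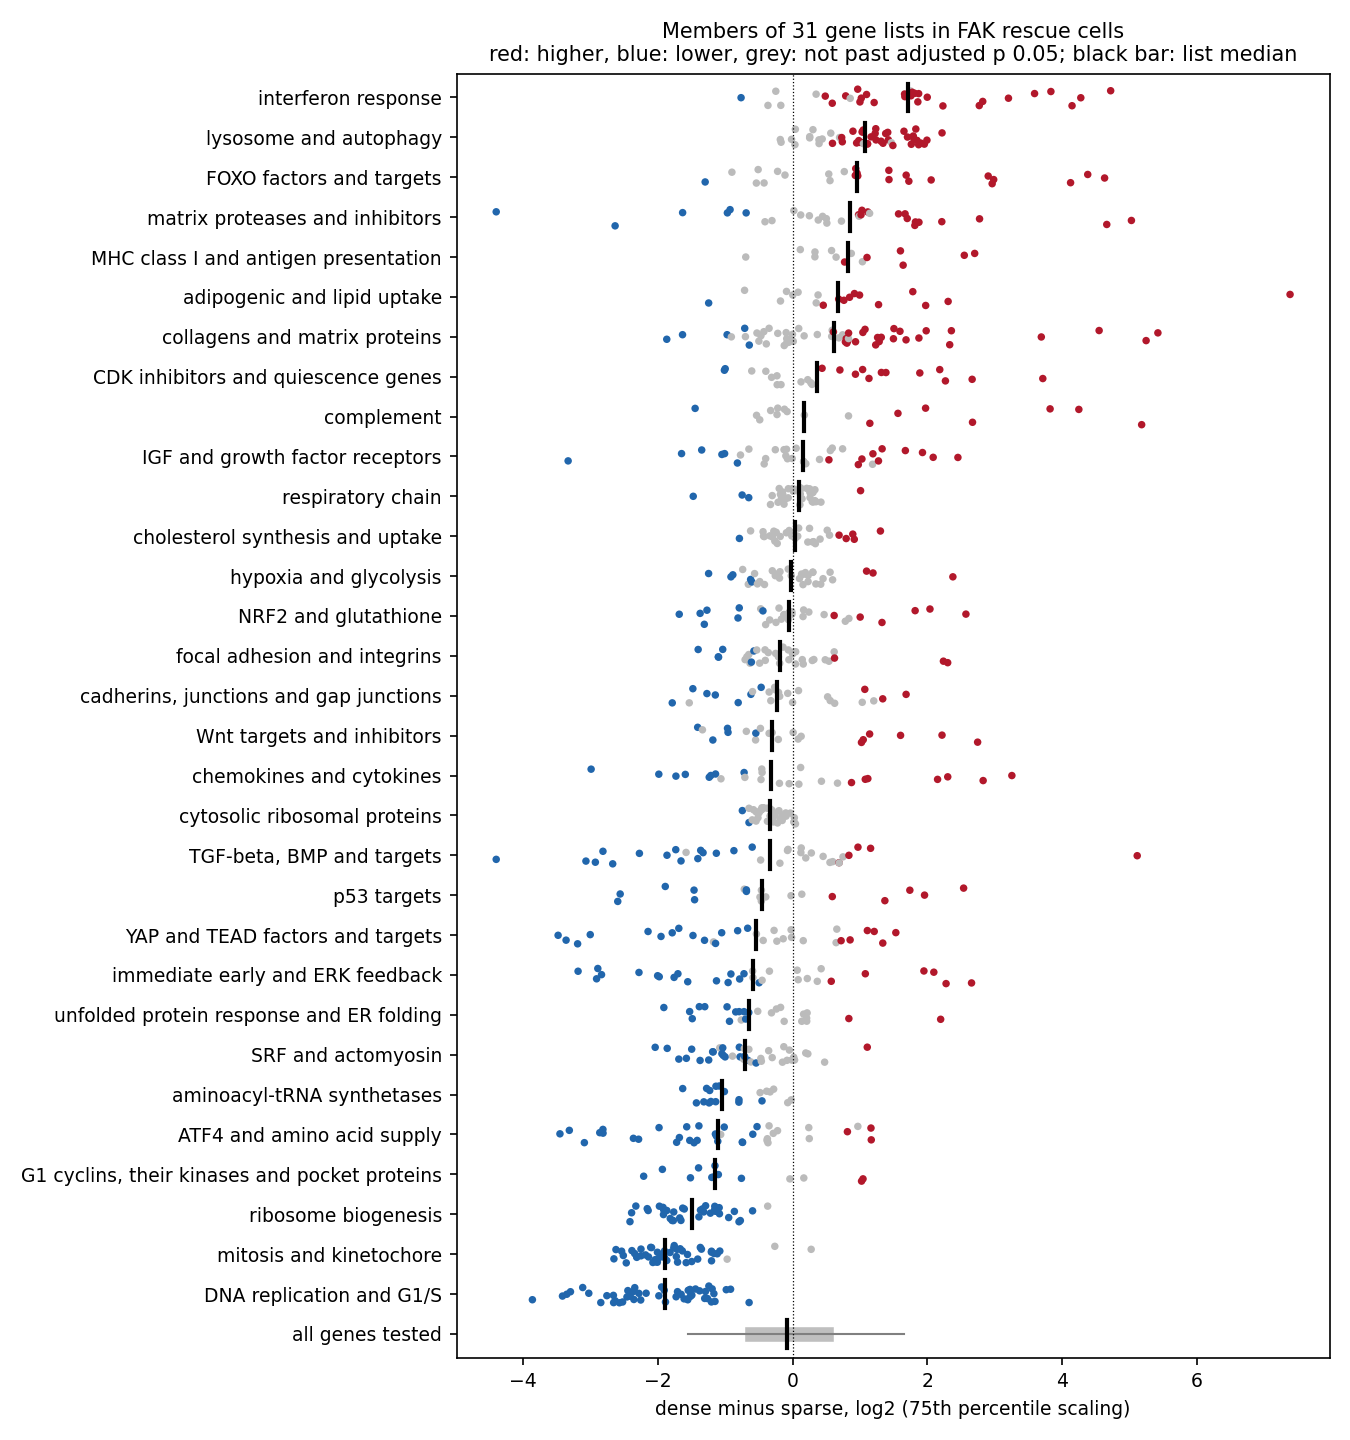
Dense minus sparse difference (log2, horizontal) of each tested member of 31 gene lists in rescue cells, red where higher, blue where lower and grey where not past an adjusted p of 0.05, with the list median as a black bar. For all genes the bottom row gives the median, the range between the quartiles (thick) and a wider range (thin, from the percentile 5 to 95). Replication, mitosis and ribosome biogenesis lie left of 0 with few grey points (medians -1.90, -1.90 and -1.5), and interferon and lysosome genes lie mostly right (1.71 and 1.08).

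Genes on none of the lists had some of the largest rises. Selenop, the plasma selenium carrier, read -5.85, -5.45 and -7.10 in sparse and 0.57, 2.26 and 0.74 in dense cultures, a difference of 7.33 ± 0.49 (adjusted p = 1.9e-06), or 161-fold, with 1 of 3 sparse arrays well above background. S100g, a calcium-binding protein, read -3.94, -3.76 and -4.49 in sparse and 2.31, 2.40 and 1.30 in dense cultures, a rise of 67-fold. Enpp2, autotaxin, which makes lysophosphatidic acid, read -3.92, -3.89 and -3.85 in sparse and 0.94, 2.60 and 1.24 in dense cultures, a rise of 44.4-fold. Wfdc3 rose 41.3-fold, the ribonuclease Rnase1 27.7-fold on its brighter probe, the receptor Plxdc1 25.8-fold and ferroportin, Slc40a1, the exporter of iron, 24-fold. Islr, Pcdhb20, Adhfe1 and N4bp2l1 were well above background only in dense cultures, at least 17.2-fold, 14.3-fold, 13.2-fold and 12.3-fold higher.

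By measured difference the largest falls were in genes of the cornified envelope, the outer coat of skin cells. Lce1g read 1.2, -0.22 and 1.58 in sparse and -5.03, -5.70 and -6.73 in dense cultures, a measured fall of 102-fold (adjusted p = 1.3e-05), and Lce1i fell 55-fold, each with 2 of 3 dense arrays well above background. Lce1f was at least 18.3-fold lower. These genes are near copies of each other and share signal, and the second Lce1g probe changed by -0.34 only, so that which of them changed is uncertain. Serpinb2 (PAI-2) read -0.86, -0.86 and -0.36 in sparse and -5.04, -5.94 and -4.81 in dense cultures, a fall of 23.8-fold on both probes, with 2 of 3 dense arrays well above background. Rnd1, a small GTPase that loosens adhesion, fell 14.1-fold, the potassium channel subunit Kcnf1 12.9-fold, the pentraxin Ptx3 12.8-fold, Tmem171 11.7-fold, Rassf6 11.4-fold and Foxn1, a factor of thymus and skin epithelium, 11.3-fold. Cobl, an actin nucleator, Prl3d2, a member of the prolactin family with near copies, Cyp1a1, a target of the aryl hydrocarbon receptor, and Adcy1, an adenylyl cyclase, were measured only in sparse cultures and were at least 14.7-fold, 10-fold, 9.24-fold and 8.48-fold lower.

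Most markers of the labelled cell type were present at both densities. Of 12 fibroblast markers on the arrays 10 were tested, and 6 of them rose and none fell (median 1.31). Of all genes 19.0% rose and 21% fell, and the counts of these small lists stand beside those shares. Thy1 and Fap were not tested, because no group had them well above background on all 3 arrays. Col1a1, Col1a2, Col3a1, Vim, Dcn, Pdgfra, Pdgfrb, Fn1 and S100a4 were well above background on every rescue array, and Lum on the dense arrays only. Of 8 epithelial markers 3 keratins, Krt8, Krt14 and Krt18, fell, and none rose; spike-in scaling left 1 fall, and 5 fell with day as a replicate block over the 6 rescue arrays. Of 7 muscle markers 4 fell and 1 rose, and these 4 include Acta2 and Cnn1 from the actomyosin list. Of 8 mesothelial markers 4 were not well above background on any rescue array, among them Wt1 and Bnc1. In that list 2 fell (25%), near the share of all genes. Among the other marker lists, 2 of 4 endothelial, 1 of 6 macrophage and blood, 2 of 5 neural and 3 of 5 bone and cartilage markers rose. These are 50%, 16.7%, 40% and 60%, against 19.0% of all genes. The 1 blood marker that fell was Csf1r, and neither adipocyte marker passed. After normexp correction no endothelial marker rose, and without day 2 1 bone and cartilage marker did. Presence was not particular to the fibroblast list. A probe was well above background on all 6 rescue arrays for 5 of 8 epithelial and 6 of 7 muscle markers tested. The same held for 5 of 6 macrophage and blood, 4 of 5 neural and 5 of 5 bone and cartilage markers. It also held for 2 of 8 mesothelial, 2 of 4 endothelial and 2 of 2 adipocyte markers. The part of other cell types in the results was not tested.

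The FAK KO line, seeded in the same way, gave 1356 of 12435 genes past the threshold (10.9%), 676 higher (5.44%) and 680 lower (5.47%). The test of the difference between the lines is the interaction, the response of KO cells minus that of rescue cells, and 2579 genes passed it (20.7%), 1402 with the more positive response in KO cells (11.3%) and 1177 with the more negative (9.47%). These counts depend on the scaling. The interaction gave 10802 genes with spike-in scaling, 567 after normexp correction and 1710 without day 2 of the rescue line. The KO comparison gave 12379 and 48 genes under the first pair of these settings. Spike-in RNA lay 2.81 to 4.15 log2 units above the 75th percentile in sparse KO cultures and 0.32 to 0.63 in dense ones. Spike-in scaling thus moves KO responses upward by more than rescue responses. It can turn around falls in KO cells and negative interactions. Unless another setting is named, KO values and interactions below are those of 75th percentile scaling. Of the 4977 genes that changed in rescue cells, 2174 also passed the interaction, and in 2098 of these the rescue change was the larger. The choice of genes that passed in rescue cells favours a larger rescue change. In 623 of the 4977 the KO line passed in the same direction, in 118 in the opposite direction and in 4236 not at all, of which 1959 passed the interaction. Of the 1356 genes that changed in KO cells, 248 did not pass in rescue cells and passed the interaction. Medium, clone and FAK differ together between the lines and cannot be told apart, and on days 1 and 3 the lines lay on different slides.

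Replication and mitosis genes had the largest share of members whose response differed between the lines, among the 31 lists. In KO cells the replication and mitosis lists had medians of 0.04 and 0.03, and 44 and 39 of their 50 members passed the interaction, all with the KO response above the rescue response. Mybl2 differed by -0.25 in KO cells, an interaction of 3.62 ± 0.34 (adjusted p = 9.6e-05), and Cdc6 by 0.47, an interaction of 3.89 ± 0.33 (adjusted p = 4.8e-05). The ATF4 list had a KO median of 0.14, with 22 of 37 past the interaction, and tRNA synthetases -0.04, with 12 of 20. Ribosome biogenesis fell in both lines, in part: the KO median was -0.52, 7 of 36 members fell there, and 18 passed the interaction. Myc fell in both, by -2.2 in KO cells, with an interaction of -0.28 ± 0.51 (adjusted p = 0.73).

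Among the rising lists, 18 of 32 interferon genes and 19 of 50 lysosome genes passed the interaction, all with the lower response in KO cells, where the medians were -0.20 and 0.22. For Oasl2 the interaction was -5.25 ± 0.41 (adjusted p = 3.1e-05). Dcn differed by 0.20 in KO cells, an interaction of -4.35 ± 0.37 (adjusted p = 4.5e-05). For several genes no difference between the lines was called: Ankrd1 fell in both (-2.51 in KO cells; interaction 0.50 ± 0.49, adjusted p = 0.5), and so did Ccn2 (-1.76; interaction 1.44 ± 0.48, adjusted p = 0.056) and Fosl1 (-4.48; interaction -1.29 ± 0.73, adjusted p = 0.23), while Gas1 rose in both (1.99; interaction -0.19 ± 0.42, adjusted p = 0.78). In the immediate early list the KO median was -0.86 with 15 of 31 lower. Of 32 cholesterol genes 15 rose in KO and 5 in rescue cells, with a KO median of 0.77, and 10 passed the interaction, all with the KO response above.

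**Figure D4:**
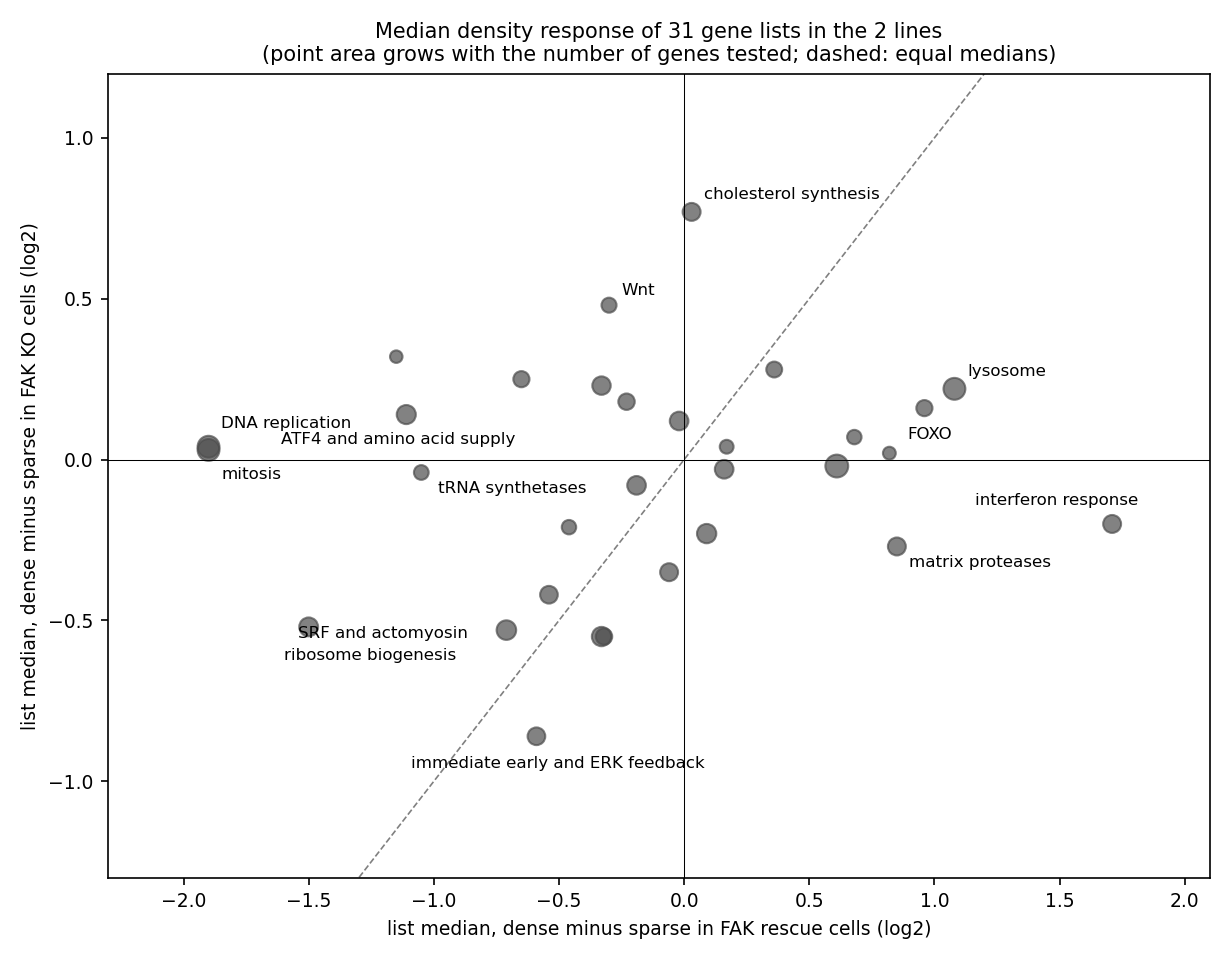
Median dense minus sparse difference (log2) of 31 gene lists in rescue cells (horizontal) and KO cells (vertical); point area grows with the number of genes tested and the dashed line marks equal medians. Replication and mitosis lie far left at a KO median near 0 (0.04 and 0.03), interferon genes far right at -0.20, and cholesterol genes at 0.03 and 0.77.

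The scaling decides where the middle of all genes lies and with it the direction of lists with small medians. The lists drawn with a rescue median below -1 stayed below 0 and those above 0.3 stayed above 0 under the 5 scalings and corrections tried. The medians between crossed 0 in several cases, mostly with spike-in scaling.

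**Figure D5:**
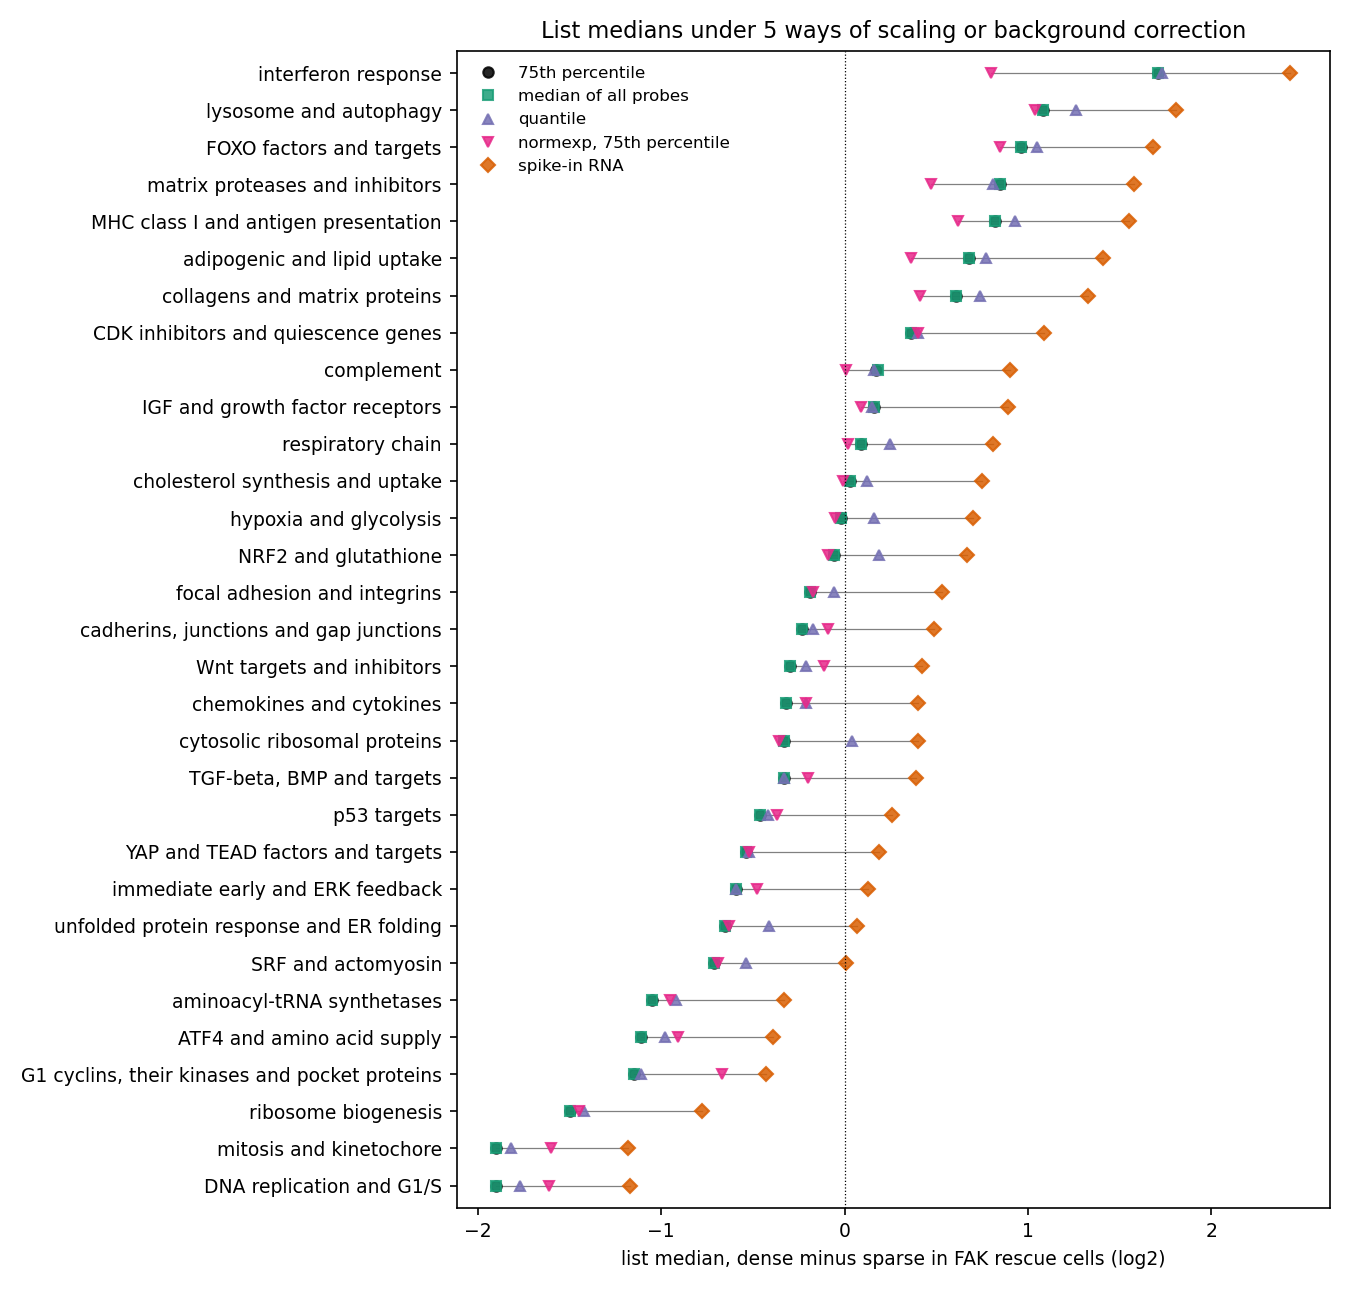
Median dense minus sparse difference (log2, horizontal) of the same 31 lists in rescue cells, under scaling to the 75th percentile (black), the median of all probes (green), quantile normalization (purple), normexp background correction (pink) and spike-in RNA (orange). Spike-in scaling moves every list to the right, so that the YAP list goes from -0.54 to 0.19 and the SRF list from -0.71 to 0.01, while replication stays at -1.17 and lysosome genes at 1.81.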

How the data were processed

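RNA of the 12 cultures was labelled with Cy3 and hybridised to 1-colour Agilent arrays, of which 6 hold the rescue line. The deposited scanner files hold intensities (processed signal, background-subtracted per the file headers) from Agilent Feature Extraction 10.5.1.1, and the authors' deposited value table holds log2 values whose making is not given in the sources used here. Each column of that table has a median between 9.93 and 10.1, and its scale and centring beyond this are unknown.

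Spots other than controls were used (43379), 79 to 265 flagged spots per array were left out and none was saturated. Spots of a probe were averaged (41174 probes, 24375 named by matching the files' RefSeq accessions to the supplied RefSeq gene table). Log2 intensity minus the array's 75th percentile was kept for the 25927 probes that some group measured well above background on each of its 3 arrays, and the brightest kept probe stood for its gene (12435 genes). All 12 arrays entered 1 limma fit (limma 3.58.1, R 4.3.3) with 4 groups. Genes with a Benjamini-Hochberg adjusted p under 0.05 over all genes passed, and errors are limma's SE. The script was tested on simulated data. Same-day sparse and dense arrays of the rescue line shared a slide, and their deviations from the group means correlated at 0.207, 0.193 and 0.295; the labels name the shared day. With day as a replicate block no call count over all genes moved by over 1.5 times, while some counts of list members did.

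The members and gene lists were chosen with earlier results of these data known, and list counts are descriptions. Named were, by rule, the 12 largest rises and falls measured at both densities, the 6 largest lower bounds each way, 5 members of each list and 2 against its direction, the 8 strongest interactions each way, and a set of regulators. Fewer were printed. Marker genes, promoter examples and members named beside counts of 5 or fewer were chosen after their values were seen. Alternatives were other scalings, normexp on the median signal (a mean signal column had been planned, and the files used here hold the median), probe filters, the deposited table, blocks and left-out arrays. Some genes are not reported here.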

Additional observations from a re-analysis of the deposited data

Results flagged for a closer look

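The density response differed between the 2 lines, by the interaction term of the limma fit, for 2579 genes. The values below are the KO response minus the rescue response on the log2 scale, for the 8 most negative and the 8 most positive, which rank measured differences even where 1 side is not well above background. The most negative were Abca1 at -6.96, S100g at -6.58, Selenop at -6.48 and Lum at -6.14. They were followed by Islr at -5.83, Enpp2 at -5.59, Mmp13 at -5.45 and Mme, a membrane peptidase, at -5.38. The most positive were Lce1g at 5.20, Cobl at 4.77, Lce1f at 4.54 and Fst at 4.38. Next came the chemokine receptor Cxcr6 at 4.28, the netrin receptor Dcc at 4.28, Adcy1 at 4.02 and Cyp1a1 at 3.89. Dcc was not well above background on any rescue array, so that its value has only the KO side measured. S100g, Lum, Islr, Enpp2, Mmp13, Lce1g, Lce1f, Cxcr6 and Cyp1a1 were not well above background on any KO array. Of these 16 interactions, normexp correction left 6 called, ended the call of 9 and turned 1, that of Dcc. Only 4 could be tested with probes well above background on all 6 rescue arrays, and these stayed called. Groups of 3 arrays were not searched for single outlying arrays.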

How the results depend on the processing

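Of the alternatives, normexp background correction, spike-in scaling and the authors' deposited table moved the counts most. Normexp left 2321 rescue genes past the threshold, 1035 higher and 1286 lower, with 567 for the interaction and 48 for KO cells. Spike-in scaling left 320 lower rescue genes and gave 10802 for the interaction and 12379 for KO cells. The deposited table as labelled gave 0 rescue genes, 0 higher, 0 lower and 0 for the interaction by limma's adjusted p (903 and 32 at an unadjusted p under 0.05), and 1 for KO cells. With its days 1 and 2 only, chosen after seeing the data, it gave 1671 lower rescue genes, 1402 for the interaction and 775 for KO cells. Without 1 rescue array 4242 to 4527 rescue genes passed, and without 1 day 3592 to 4107. The interaction count ran from 1710, without day 2, to 2438. With day as a replicate block 5363 rescue genes passed over 12 arrays and 5092 over the 6 rescue arrays. With the block over 12 arrays, lower calls in lists went from 2 to 4 (cytosolic ribosomal), from 1 to 3 (FOXO) and from 1 to 2 (cholesterol, complement, adipogenic, macrophage and blood), and higher calls from 3 to 5 (hypoxia, cadherin) and from 1 to 2 (respiratory chain).

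List medians turned positive with spike-in scaling for YAP (0.19), SRF (0.01), focal adhesion (0.53), immediate early (0.13), unfolded protein response (0.07), chemokine (0.40), cadherin (0.49), Wnt (0.42), TGF-beta (0.39), p53 (0.26), mesothelial (0.23), macrophage and blood (0.26), cytosolic ribosomal (0.40), hypoxia (0.70), NRF2 (0.67) and adipocyte (0.54) genes. After quantile normalization the hypoxia, NRF2 and cytosolic ribosomal medians were 0.16, 0.19 and 0.04. The mesothelial median was 0.02 after quantile normalization and 0.00 in the deposited table, where that of the Wnt list was 0.12. Rpl15 was at 0.08 with spike-in scaling, and Ptk2 at -0.67 as the mean of its probes (limma adjusted p = 0.0131). The interaction of Dcc was -1.07 after normexp and -0.28 in the deposited table. Beyond the mismatched columns of that table, the causes were not tested. Signal near background limits what the arrays show for the genes given only as bounds.

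Of 192 genes named, 173 changed, and 68 of these lost the call or turned under at least 1 alternative other than the deposited table as labelled. Normexp correction ended the call of 36: Adcy1, Adhfe1, Cdkn1b, Cobl, Crebrf, Ctso, Cyp1a1, Dhx58, Foxn1, Foxo3, Fst, Gbp3, Gdf15, Git1, Hes1, Id4, Ifit1, Igfbp2, Il1rn, Irf7, Islr, Lce1f, Lum, Masp1, Mmp13, Mmp3, N4bp2l1, Nt5e, Parp14, Prl3d2, Rb1, Rbl1, Rbl2, Rpl15, Slc7a11 and Trim63. Spike-in scaling ended that of 31: Abcb4, Acta2, Actg2, Atf4, Ccn1, Cdkn2d, Csf1r, Dhx58, E2f1, Fhl1, Gclm, Git1, Hes1, Hyou1, Itga3, Krt18, Krt8, Manf, Mars1, Masp1, Myc, Nrp1, Rbl1, Rps27l, Sdf2l1, Srf, Tagln, Tagln2, Thbs1, Vars and Yars. Leaving out 1 array ended the call of 1 to 4 of the named genes, among Cdkn1b, Dhx58, Foxo3, Hes1, Rpl15, Rps27l and Vldlr.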
